A study of Rattus norvegicus with 9 samples.

Results

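The genes described here mark B cells and plasma cells, and they were followed in the rat spinal cord after contusion injury with and without stimulation. Cd79a, Cd79b, Cd22, Ms4a1, Pax5, Jchain, Mzb1, Pou2af1 and Tnfrsf17 were chosen by symbol from the table of gene counts, so they make up 9 of its 30507 rows, and each stood on 1 row. Polyadenylated RNA was sequenced from unsorted tissue of spinal cord segments T9 to T11, which span the lesion. The tissue came from 9 female wild-type Sprague-Dawley rats that were 8 weeks old at the start of the study. They formed groups named Sham, SCI and SCI + SCS with 3 rats apiece, and all tissue was taken 35 days after surgery. Sham rats are described as untreated in the labels and as having had a laminectomy without contusion in the study's methods. SCI rats had a contusion at T10, and an external plug without an electrode in the epidural space. SCI + SCS rats had the same contusion, an implanted epidural electrode and daily stimulation at 10 kHz. Rats with an electrode and no stimulation were not analysed here, so the electrode and the current cannot be told apart. The labels do not divide the libraries into batches, so a difference between batches could not be examined.

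B cells carry an antibody on their surface as the B cell receptor, and the chains encoded by Cd79a and Cd79b pass its signal into the cell. A B cell that is activated can become a plasma cell, which stops displaying the receptor and secretes antibody, and this change replaces the program held by Pax5 with one that expands the secretory pathway. Few B cells are found in the healthy spinal cord, and after contusion B cells and antibody-secreting cells are known to gather at the lesion and in the meninges. In bulk tissue, more cells of a type and more RNA per cell cannot be told apart.

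Library totals ran from 62844376 to 88358570 counts, with a median of 87254968 in Sham, 67795969 in SCI and 69935609 in SCI + SCS. A count of 3, used as the floor, was worth 0.034 to 0.0477 CPM (counts divided by the library total, scaled to a common size) in these libraries, for counting error alone. Counts of the members summed to 141 to 282 per Sham library, to 587 to 1718 per SCI library and to 444 to 781 per SCI + SCS library. Skeletal muscle markers summed to 3957 CPM in SCI 1 and 1139 CPM in SCI 3 against 32.8 to 139 CPM in the other 7 libraries. Adipocyte markers summed to 3.25 to 9.55 CPM in Sham, 88.6 to 117 in SCI and 27.3 to 43.9 in SCI + SCS. SCI 2 had the highest adipocyte sum. Erythroid and platelet markers summed to 14.4 to 68.3, 90.6 to 181 and 80.6 to 125 CPM in the same order. The part of such tissues in the results was not tested. Each library is a separate rat by its label, and p-values measure the spread between these rats.

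The label was checked against the genes that define these cells. Ms4a1, which encodes the B cell surface protein CD20, was at 0 counts in 3 of the 9 libraries, and its highest count was 17. The table held 59 rows for immunoglobulin chain genes, of which 30 were at 0 in every library. All these rows together had 100 counts in Sham, 206 in SCI and 124 in SCI + SCS. Per library these rows had 3 to 61 counts in Sham, 20 to 140 in SCI and 19 to 63 in SCI + SCS.

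**Figure D1:**
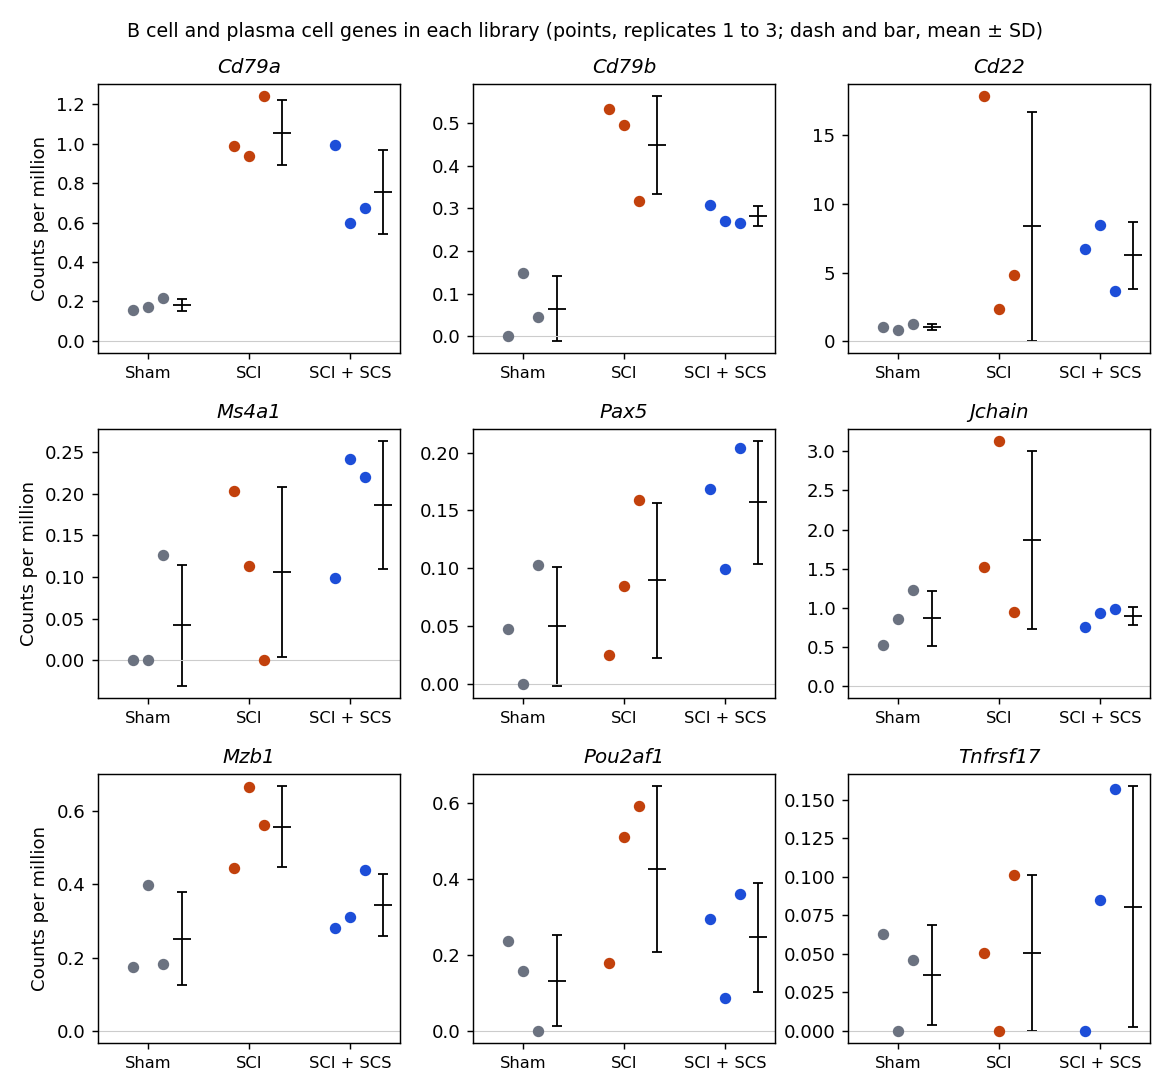
CPM of each of the 9 genes in each library, normalized by TMM over all 9 libraries. Points are rats in the order of replicates 1 to 3, the dash is the group mean and the bar its SD over 3 rats, and the vertical axis differs between panels. Cd79a, Cd79b and Cd22 of every injured rat lay above all Sham points, while Ms4a1 and Tnfrsf17 were at 0 in 3 libraries each.

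Promoters of 4 of the 9 members were found in the RefSeq table (build GRCr8), each running from 250 bases before the start to 50 bases after it. Those of Cd79a and Cd22 are printed because these genes were higher than Sham in both injured groups. The Cd79a promoter lies at chr1:89621210-89621509 on the + strand, and the Cd22 promoter at chr1:95259681-95259980 on the - strand. The sequences are read 5′ to 3′ along each gene, and the capitals mark matches to GGAAGT, the core bound by ETS factors, or to GAGGAA, a core bound by the ETS factor PU.1, on either strand.
Cd79a: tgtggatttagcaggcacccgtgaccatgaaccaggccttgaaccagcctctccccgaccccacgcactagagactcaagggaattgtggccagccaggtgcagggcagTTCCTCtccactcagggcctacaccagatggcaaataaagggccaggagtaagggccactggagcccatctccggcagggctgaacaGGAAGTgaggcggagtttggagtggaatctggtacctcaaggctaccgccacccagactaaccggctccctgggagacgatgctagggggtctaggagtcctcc
Cd22: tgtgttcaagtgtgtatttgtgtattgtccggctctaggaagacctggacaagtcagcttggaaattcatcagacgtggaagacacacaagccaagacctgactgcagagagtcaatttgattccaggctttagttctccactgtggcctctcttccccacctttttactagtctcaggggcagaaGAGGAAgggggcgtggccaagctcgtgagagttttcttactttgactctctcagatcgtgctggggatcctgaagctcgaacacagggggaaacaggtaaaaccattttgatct
GGAAGT was found in the Cd79a promoter at 54 to 49 bases before the start, and its reverse complement was in none of the 4. GAGGAA was found in the Cd22 promoter at 64 to 59 bases before the start, and its reverse complement TTCCTC in the Cd79a promoter at 141 to 136 bases before the start. Of 33469 promoters of 300 bases, 22.6% held GGAAGT and 27.6% held GAGGAA on either strand. The 2 letter strings share GGAA and can overlap, although they did not overlap here. The octamer ATGCAAAT, known from immunoglobulin promoters, was in none of the 4 promoters on either strand and in 1.78% of all promoters. TATAAA was in the Tnfrsf17 promoter, and in 14.2% of all promoters. A match in letters is a description of the sequence.

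Signaling chains of the B cell receptor were more abundant after SCI. Cd79a (chromosome 1, 80493581 to 80497935, + strand, in the coordinates of the deposited table) had 10, 15 and 19 counts in Sham, 78, 66 and 86 in SCI, and 71, 42 and 43 in SCI + SCS. Every injured rat was above every Sham rat, and the SCI and SCI + SCS rats overlapped through the first SCI + SCS rat. Mean Cd79a was 0.182 ± 0.032 CPM in Sham, 1.06 ± 0.164 in SCI and 0.755 ± 0.212 in SCI + SCS (SD, n = 3 each). Between SCI and Sham, Cd79a differed by a log2 fold change of 2.51 (SE 0.33, 95% interval 1.71 to 3.31, adjusted p = 0.00232, quasi-likelihood test of edgeR, adjusted by the Benjamini-Hochberg method). This corresponds to a 5.68-fold higher level in SCI.

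Cd79b (chromosome 10, 91239356 to 91242514, - strand), the partner of Cd79a in the receptor, was measured at lower counts. It had 0, 13 and 4 counts in Sham, 42, 35 and 22 in SCI, and 22, 19 and 17 in SCI + SCS. The 3 groups did not overlap in CPM, with SCI highest and Sham lowest. Cd79b rose by a log2 fold change of 2.69 in SCI against Sham (SE 0.89, 95% interval 0.55 to 4.83, edgeR adjusted p = 0.0441). This call was lost when any 1 of 5 of the 6 libraries was left out, with an edgeR adjusted p of up to 0.119, and was kept without Sham 2, where the log2 fold change was 4.05.

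Cd22 (chromosome 1, 86117459 to 86132322, - strand) encodes a sialic acid binding receptor that dampens B cell receptor signaling, and in mice it is also known from microglia. Cd22 had 65, 72 and 112 counts in Sham, 1407, 168 and 334 in SCI, and 478, 596 and 233 in SCI + SCS. All injured rats were above all Sham rats, and SCI 1 alone held most of the SCI counts. Cd22 averaged 1.04 ± 0.232 CPM in Sham, 8.36 ± 8.32 in SCI and 6.27 ± 2.43 in SCI + SCS (SD, n = 3 each). The log2 fold change of SCI against Sham was 2.99 (SE 0.75, 95% interval 1.19 to 4.79, edgeR adjusted p = 0.0173), and without Sham 2 the edgeR adjusted p was 0.0655. Without SCI 1 the log2 fold change was 1.77 and was still called (edgeR adjusted p = 0.0181). Microglia markers summed to 1340, 1180 and 920 CPM in the 3 SCI libraries and to 394 to 562 CPM in Sham, and their part in the Cd22 values was not tested.

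In all, 3 of the 9 members were called higher in SCI than in Sham and 0 lower, where called means an adjusted p under 0.05 and a log2 fold change beyond 1 in size. Of 17822 genes tested in this comparison, 13.4% were called higher and 13.6% lower. The filter on low counts left 6 members, and Ms4a1, Pax5 and Tnfrsf17 were not tested. Libraries of SCI lay above those of Sham without overlap for Cd79a, Cd79b, Cd22 and Mzb1, which was also so for 32.6% of all genes tested. The median log2 fold change of all genes was 0.015. On the log2(FPKM + 1) scale with limma 0 members were called, in this comparison and in SCI + SCS against Sham.

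Cd22 also carried a large and uneven share of the summed level of the members. Its share of their summed CPM was 81.9% in SCI 1, 28.6% in SCI 2 and 55.2% in SCI 3. In Sham that share was 32.1% to 46.1%, and in SCI + SCS it was 52.5% to 76.3%. Without Cd22, the members summed to 1.19 to 1.94 CPM in Sham, to 3.92 to 5.95 in SCI and to 2.62 to 3.31 in SCI + SCS. The high total of SCI 1 was therefore a Cd22 total, and once Cd22 was set aside the highest library was SCI 2.

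**Figure D2:**
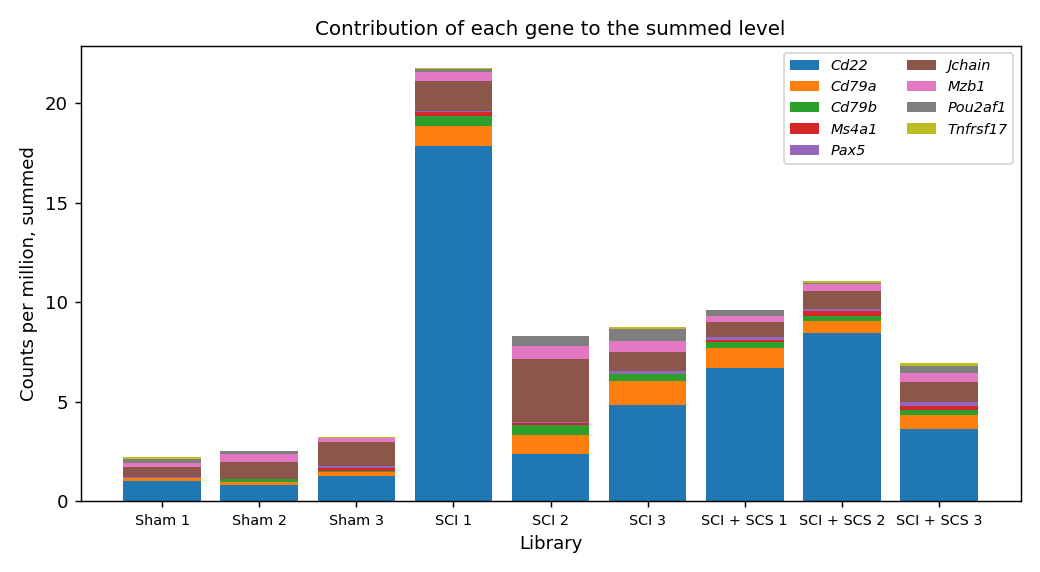
Stacked CPM of the 9 genes in each library, with a bar for each rat and a colour for each gene. Cd22 makes up 81.9% of the bar of SCI 1, the tallest of the 9, and 28.6% of the bar of SCI 2, where Jchain is the larger segment.

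Genes of antibody-secreting cells gave a less even picture. Jchain (chromosome 14, 19538952 to 19546298, + strand) encodes the chain that joins IgM and IgA into polymers. It had 33, 75 and 107 counts in Sham, 120, 221 and 65 in SCI, and 54, 66 and 63 in SCI + SCS. SCI 2 was the highest library for Jchain, and SCI 3 lay within the range of Sham. Its log2 fold change of SCI against Sham was 1.09 (SE 0.53, 95% interval -0.19 to 2.37), which was not called (edgeR adjusted p = 0.131), and without SCI 2 it was 0.48.

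Mzb1 (chromosome 18, 27239001 to 27241094, - strand) encodes a protein of the endoplasmic reticulum that aids antibody assembly and secretion. It had 11, 35 and 16 counts in Sham, 35, 47 and 39 in SCI, and 20, 22 and 28 in SCI + SCS. In CPM the SCI rats were above both other groups without overlap, by a small margin over Sham 2 and over SCI + SCS 3. The log2 fold change against Sham was 1.12 (SE 0.46, 95% interval 0.02 to 2.22) and was not called (edgeR adjusted p = 0.084). Without Sham 2 it was 1.61 and was called (edgeR adjusted p = 0.0489).

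Pou2af1 (chromosome 8, 51474015 to 51548819, + strand) encodes a coactivator that works with octamer-binding factors in B cells. It had 15, 14 and 0 counts in Sham, 14, 36 and 41 in SCI, and 21, 6 and 23 in SCI + SCS. The groups overlapped, and SCI 2 and SCI 3 were the highest libraries. The log2 fold change of SCI against Sham was 1.69 (SE 1.06, 95% interval -0.83 to 4.22, edgeR adjusted p = 0.221), and it ran from 1.08 without Sham 3 to 2.37 without Sham 1.

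Ms4a1 (chromosome 1, 207906374 to 207918512, - strand) had 0, 0 and 11 counts in Sham, 16, 8 and 0 in SCI, and 7, 17 and 14 in SCI + SCS. Pax5 (chromosome 5, 58765036 to 58944326, - strand), the factor that holds B cell identity, had 3, 0 and 9 counts in Sham, 2, 6 and 11 in SCI, and 12, 7 and 13 in SCI + SCS. Tnfrsf17 (chromosome 10, 4301038 to 4306788, - strand), which encodes BCMA, the receptor through which plasma cells receive survival signals, had 4, 0 and 4 counts in Sham, 4, 0 and 7 in SCI, and 0, 6 and 10 in SCI + SCS. All groups overlapped for these genes, and the filter on low counts left them out of the main edgeR test against Sham. DESeq2 tested Ms4a1, Pax5 and Tnfrsf17 against Sham and called none of them. Its adjusted p-values in this order were 0.705, 0.706 and 0.878 in SCI, and 0.326, 0.316 and 0.679 in SCI + SCS. When Sham 3 was left out, Ms4a1 was tested by edgeR in SCI + SCS against Sham and was called higher. Sham 3 was the only Sham library with Ms4a1 counts, and both remaining Sham libraries were at 0. Ms4a1 then passed the filter through SCI + SCS alone, so this call is no support for a difference. A gene of the opposite strand overlaps Tnfrsf17, and it had 0 counts in every library.

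Levels were compared between genes on the deposited FPKM scale, which scales by gene length, although the length it implies for a gene varied between libraries. In Sham, Jchain had the highest level at 0.559 ± 0.235 FPKM, followed by Cd22 at 0.224 ± 0.049, Mzb1 at 0.22 ± 0.117 and Cd79a at 0.138 ± 0.027. Jchain lay above Cd22 without overlap of the libraries, Cd22 overlapped Mzb1 and Mzb1 overlapped Cd79a, and the other 5 genes had lower means. In SCI the order was Cd22 at 1.7 ± 1.56 FPKM, Jchain at 1.21 ± 0.801, Cd79a at 0.844 ± 0.169, Mzb1 at 0.493 ± 0.136 and Cd79b at 0.255 ± 0.072. Each of the leading 3 overlapped its neighbour, whereas Cd79a was clear of Mzb1 and Mzb1 of Cd79b. After stimulation Cd22 led at 1.39 ± 0.537 FPKM, followed by Cd79a at 0.618 ± 0.175 and Jchain at 0.588 ± 0.078. Cd22 overlapped Cd79a there, and Cd79a overlapped Jchain. The order in SCI rested on SCI 1, since without it the means were 1.38 FPKM for Jchain, 0.909 for Cd79a and 0.817 for Cd22.

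Stimulation was compared with SCI alone to ask whether these genes differed under it. Of the 8 members tested in SCI + SCS against SCI, 0 were called by edgeR, 0 reached an unadjusted p under 0.05, and 0 were called by DESeq2, which gave an adjusted p for 6 of them. Of 17663 genes tested, 0.00566% were called higher, which is 1 gene, and 0% lower. By edgeR, 24.2% of the genes tested had an unadjusted p under 0.05, and 5.59% passed with the fold threshold added. DESeq2 called 4.48% of 17356. By DESeq2, Jchain had an unadjusted p of 0.0306 in this comparison and an adjusted p of 0.132.

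Cd79a differed by -0.47 (log2) between SCI + SCS and SCI, with a 95% interval of -1.21 to 0.26. Cd79b differed by -0.66, with an interval of -1.54 to 0.21, and its SCI + SCS libraries lay below those of SCI without overlap. Mzb1 was -0.69, with an interval of -1.55 to 0.17, and its libraries were likewise below without overlap. Such a downward separation was seen for 13.9% of all genes tested. The intervals reach from a level about as high as in SCI to a clearly lower one, so neither no change nor a fall was shown for these genes.

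Jchain was -1.05 (SE 0.45, 95% interval -2.12 to 0.02, edgeR adjusted p = 0.212), and -0.46 without SCI 2. Its SCI + SCS rats spread little, at 0.758 to 0.987 CPM, and lay around the level of SCI 3 and below SCI 1 and SCI 2. Pou2af1 was -0.78, with an interval of -2.34 to 0.78. The Cd22 difference was -0.41, with an interval of -2.07 to 1.25, and it turned to 0.79 without SCI 1. Ms4a1 and Pax5 had higher means in SCI + SCS, with differences of 0.79 (interval -1.46 to 3.05) and 0.82 (interval -0.83 to 2.47) on the log2 scale at counts of 17 or fewer. They were 1.67 for Ms4a1 without SCI 1 and 1.50 for Pax5 without SCI 3, and neither was called.

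**Figure D3:**
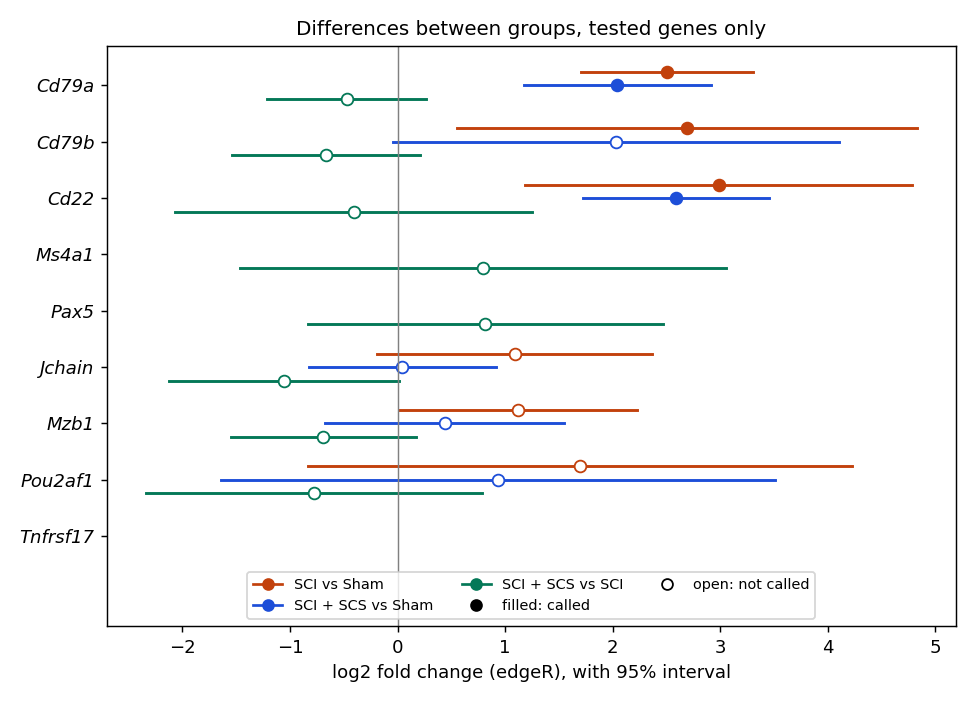
Log2 fold change and 95% interval of each tested gene in the 3 comparisons, from edgeR fits of 6 libraries each, with filled points for calls. The filled points are Cd79a, Cd79b and Cd22 in SCI against Sham and Cd79a and Cd22 in SCI + SCS against Sham, and every interval of SCI + SCS against SCI includes 0. Ms4a1 and Pax5 passed the filter only in SCI + SCS against SCI, and Tnfrsf17 in none.

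Compared with Sham, 2 of the 9 members were called higher in SCI + SCS and 0 lower, with 6 tested, while 6.28% of 17640 genes were called higher and 5.44% lower. This comparison shares its Sham rats with the one of SCI and Sham. Cd79a had a log2 fold change of 2.04 (SE 0.36, 95% interval 1.17 to 2.91, edgeR adjusted p = 0.0108). The value of Cd22 was 2.59 (SE 0.36, interval 1.73 to 3.46, edgeR adjusted p = 0.00609). Cd79b was 2.03 and was not called (edgeR adjusted p = 0.114), although its SCI + SCS libraries were above all Sham libraries, as for 27.2% of genes. Without Sham 2 it was 3.39 and not called (edgeR adjusted p = 0.0702). Jchain was 0.04 (interval -0.82 to 0.91), Mzb1 0.44 (interval -0.67 to 1.55) and Pou2af1 0.93 (interval -1.64 to 3.51), the last running from 0.33 without Sham 3 to 1.61 without Sham 1. By edgeR without a replicate block, Cd79a and Cd22 were called higher than Sham in both injured groups, and no gene of antibody secretion among the members was called in any comparison.

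Beyond the members, other genes of B cell receptor signaling were more abundant after SCI. The table held 24 such genes, of which 22 were tested. In SCI against Sham 17 were called higher and 1 lower, beside 13.4% and 13.6% of all genes. Their median log2 fold change was 1.80. In Sham, 17 of the 24 already averaged at least 1 CPM. Cd72, an inhibitory coreceptor of B cells, had 9, 45 and 40 counts in Sham, 412, 408 and 299 in SCI, and 139, 241 and 246 in SCI + SCS. Its log2 fold change was 3.75 in SCI against Sham (edgeR adjusted p = 0.00207) and 3.03 in SCI + SCS against Sham (edgeR adjusted p = 0.00969).

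Blk, a kinase of the Src family that acts at the receptor, rose by a log2 fold change of 3.38 in SCI, from 4, 6 and 9 counts in Sham to 48, 97 and 38 (edgeR adjusted p = 0.00387). Fcgr2b, the inhibitory receptor for IgG that myeloid cells also carry, rose by 2.60, and Cd37, a tetraspanin of B cells and other leukocytes, rose by 1.87 in SCI + SCS against Sham. Fcer2, the low-affinity receptor for IgE, was the gene called lower, with 12, 33 and 13 counts in Sham and 4, 0 and 0 in SCI (log2 fold change -3.64, edgeR adjusted p = 0.029). Its SCI + SCS libraries had 16, 15 and 9 counts, and the difference from Sham was not called.

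Macrophage and monocyte markers moved in the comparison of SCI and Sham, in which 13.4% of all genes were called higher. They summed to 78.8 to 338 CPM in Sham, to 2105 to 3331 in SCI and to 1552 to 1616 in SCI + SCS, and 7 of the 8 were called higher in SCI than in Sham. T and NK cell markers summed to 27.5 to 67.1, 164 to 229 and 130 to 165 CPM, with 9 of 14 tested called higher. Cd4 made up most of these sums, with group means of 36.8, 135 and 116 CPM. The median log2 fold change of this list was -1.22 in SCI + SCS against SCI, with 0 of 15 tested called. Neutrophil and marrow myeloid markers summed to 5.82 to 10.3, 19 to 38.8 and 21.6 to 42.8 CPM in the groups in the same order. Of 8 tested, 5 were called higher in SCI than in Sham. The part of these cells in the levels of the receptor signaling genes, and in those of the members, was not tested.

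Among 16 tested transcription factors of the B lineage, 4 were called higher and 3 lower in SCI against Sham, where the shares over all genes were 13.4% and 13.6%. Those higher were Spi1, which encodes PU.1 and also drives myeloid cells, at a log2 fold change of 2.96, Spib at 2.09, Irf8 at 1.89 and Prdm1 at 1.84. Those lower were Ebf1 and Foxo1, which establish early B cells, at -1.23 (edgeR adjusted p = 0.0335) and -1.33 (edgeR adjusted p = 0.0198), and Bcl11a at -1.44 (edgeR adjusted p = 0.00599), and all of these are also expressed outside the B lineage. Prdm1 encodes BLIMP1, the repressor that sets the plasma cell program, and it had 26, 30 and 60 counts in Sham, 156, 125 and 101 in SCI, and 97, 84 and 69 in SCI + SCS. Every injured rat was above every Sham rat for Prdm1, and the edgeR adjusted p was 0.00701 in SCI against Sham. Irf4, which acts with it in plasma cells, was 1.31 and not called (edgeR adjusted p = 0.076). Xbp1, which expands the secretory pathway, was 0.48, within the fold threshold.

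Genes of plasma cells and antibody secretion had the lowest median of the 6 lists followed here, with 3 of 14 tested called higher in SCI against Sham, 0 lower and a median of 0.19. Over all genes 13.4% were called higher, so the count for this list is near the background. The genes called were Tent5c, a poly(A) polymerase that stabilizes secretory mRNAs in plasma cells, at 1.91, the plasma cell marker Sdc1 (CD138) at 1.40 and Slamf7 at 1.07. Sdc1 is also carried by epithelial cells and Slamf7 by other leukocytes. Sdc1 had 181, 194 and 402 counts in Sham, 609, 673 and 592 in SCI, and 358, 308 and 306 in SCI + SCS. Its SCI + SCS libraries were below those of SCI without overlap, at -0.86 (edgeR adjusted p = 0.0719). Cd38, a surface enzyme of plasma cells and other cells, was 0.27 in SCI against Sham (edgeR adjusted p = 0.114).

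Antibody chains themselves had few counts in the rows present. Related antibody segments share reads, so single rows are uncertain. Of the 59 rows only Ighg1, the constant region of IgG1, passed the filter in SCI against Sham, with 0, 23 and 6 counts in Sham, 75, 2 and 10 in SCI, and 8, 1 and 13 in SCI + SCS. SCI 1 held most of the Ighg1 counts in SCI, and the log2 fold change of 1.70 was not called (SE 1.41, edgeR adjusted p = 0.346). Igkv2-112l2, a kappa variable segment, had 35 counts in all libraries together, and Iglc1, a lambda constant region, had 32. Summed over all rows, antibody chains were at 0.047 to 0.698 CPM in Sham, 0.289 to 1.78 in SCI and 0.269 to 0.987 in SCI + SCS, with overlapping groups.

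Signals that attract B cells or keep them alive were also followed. Of 18 tested ligands and receptors, 9 were called higher and 1 lower in SCI against Sham, with a median of 1.50, beside 13.4% and 13.6% of all genes. The gene called lower was S1pr1, a receptor that lets lymphocytes leave tissues and that endothelial cells and astrocytes also carry, at -1.05 (edgeR adjusted p = 0.0029). Meningeal and fibroblast markers summed to 1116 to 10806 CPM in Sham, to 16022 to 38226 in SCI and to 8390 to 16463 in SCI + SCS, with 8 of 10 called higher in SCI than in Sham, and their part in these values was not tested. Tnfsf13b (BAFF), the main survival factor of B cells, had 113, 140 and 268 counts in Sham, 664, 786 and 554 in SCI, and 490, 499 and 467 in SCI + SCS. All injured rats exceeded all Sham rats, with a log2 fold change of 2.08 in SCI (edgeR adjusted p = 0.00293) and 1.73 in SCI + SCS (edgeR adjusted p = 0.00827). SCI + SCS lay below SCI for Tnfsf13b without overlap, at -0.37, and was not called (edgeR adjusted p = 0.225).

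Ccr7, a chemokine receptor that guides lymphocytes and dendritic cells, had 0, 0 and 5 counts in Sham, 91, 67 and 44 in SCI, and 60, 14 and 21 in SCI + SCS. It rose by 5.36 on the log2 scale in SCI (SE 0.99, edgeR adjusted p = 0.00582). Ccl21, which encodes a ligand of CCR7, had 0, 148 and 369 counts in Sham, 1378, 1880 and 1518 in SCI, and 744, 18 and 151 in SCI + SCS, and its edgeR adjusted p in SCI against Sham was 0.04995, just inside the threshold. Cxcr4 and Gpr183, receptors that position B cells and other leukocytes, rose by 2.35 and 2.14 in SCI. Cxcl13, the chemokine that draws B cells into follicles, had 40, 103 and 880 counts in Sham, 743, 2018 and 551 in SCI, and 309, 348 and 376 in SCI + SCS. Sham 3 was higher than SCI 1 and SCI 3 in raw counts for Cxcl13, and the log2 fold change of 1.94 was not called (SE 1.07, edgeR adjusted p = 0.173).

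Receptors for the Fc part of antibodies and their transport were called higher in 5 of 7 tested in SCI against Sham. Over all genes the share called higher was 13.4%. The median log2 fold change of this list was 1.70. Fcgr2a, Fcgr1a and Fcgrt, found on phagocytes among other cells, rose by 3.31, 2.07 and 1.70. Among genes of early B cells and germinal centres, to be read beside the same share, 1 of 5 tested was called higher. This was Dntt, the polymerase that adds bases at antibody and T cell receptor gene joints, with 4, 0 and 7 counts in Sham, 109, 179 and 108 in SCI, and 102, 51 and 37 in SCI + SCS. Dntt rose by 5.23 in SCI (SE 0.83, edgeR adjusted p = 0.00368) and by 4.24 in SCI + SCS (edgeR adjusted p = 0.016) on the log2 scale. The recombinase genes Rag1 and Rag2, which act beside it in developing lymphocytes, had at most 11 counts in any library.

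Of the 96 genes in these 6 lists, 79 were tested in SCI + SCS against SCI and 0 were called by edgeR, while 22 had an unadjusted p under 0.05 and DESeq2 called 2. An unadjusted p under 0.05 was reached by 24.2% of all genes tested, and DESeq2 called 4.48%, beside 27.8% and 2.53% of the 79. The genes called by DESeq2 were Cxcl13 and Cxcl12, which encodes the ligand of CXCR4. Cxcl13 was -1.59 in edgeR (SE 0.49, adjusted p = 0.122), with every SCI + SCS library below those of SCI. Cxcl12 had 3363, 4840 and 6204 counts in Sham, 13477, 16144 and 14554 in SCI, and 3175, 7179 and 6887 in SCI + SCS. It was likewise below SCI without overlap, at -1.25 (SE 0.32, edgeR adjusted p = 0.0959). The median log2 fold change was -0.31 for receptor signaling, -0.15 for transcription factors, 0.08 for early and germinal centre genes, -0.06 for plasma cell and secretion genes, -0.40 for survival and homing genes and -0.47 for Fc receptors, against -0.0055 for all genes. Against Sham, 15, 3, 1, 1, 6 and 4 genes of the lists in this order were called higher and 0 lower in SCI + SCS, of 22, 16, 5, 14, 17 and 7 tested, beside 6.28% of all genes higher and 5.44% lower.

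**Figure D4:**
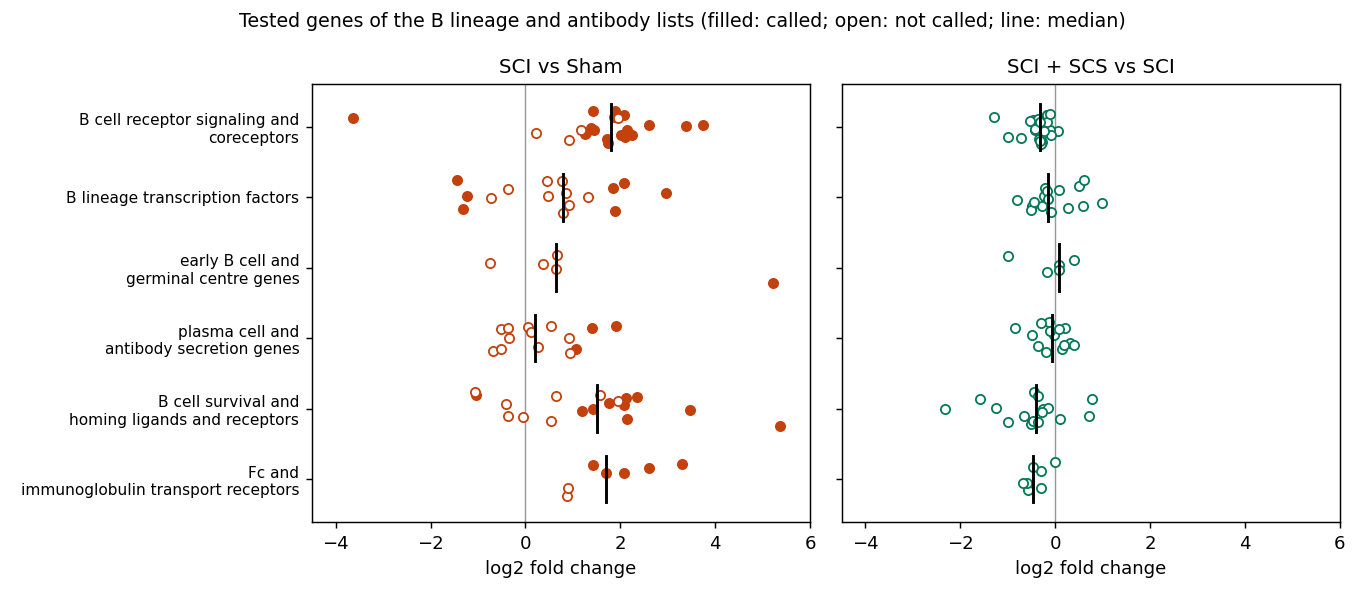
Log2 fold change of every tested gene of 6 lists, in SCI against Sham (left) and in SCI + SCS against SCI (right), with filled points for genes called by edgeR and a black line at each median. Most receptor signaling genes lie to the right of 0 on the left, with a median of 1.80, and the secretion genes centre on 0.19. All points on the right are open.

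Across the 9 libraries, Cd79a and Cd79b had a Pearson correlation of 0.857 on log2 CPM, Cd79b and Mzb1 of 0.832, and Cd79a and Cd22 of 0.811. Jchain and Cd22 had one of 0.200. These values describe 9 libraries in 3 groups, and the shared difference between groups enters all of them. A mean was taken of the members that passed the filter over all 9 libraries, which were all but Tnfrsf17. The genes most like it were Myc (r = 0.994), Nrros (r = 0.991), Kcnn4 (r = 0.990), Ppp1r13l (r = 0.990) and Ppp1r18 (r = 0.989). For single members they were Ptpn2 for Cd79a (r = 0.995), Srbd1 for Cd79b (r = 0.991), S100a1 for Cd22 (r = 0.981), Cdk12 for Jchain (r = 0.947), Txk for Mzb1 (r = 0.957) and Azi2 for Pou2af1 (r = 0.976). Each gene named for a single member was the highest among all genes compared, and those named for the mean were the leading ones, over 9 libraries.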

How the data were processed

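RNA was enriched with oligo(dT) beads by the authors, and the submitters' processing notes name fastp 0.23.2, HISAT2 2.2.1 and the build mRatBN7.2. The counting program and strand setting were not given in the sources used here. The authors deposited raw counts per gene and library, and FPKM, a level scaled by gene length and library total. The length implied by the counts and FPKM of a gene varied between libraries. Its largest deviation from the median of the gene was 224%, over 12907 genes with enough counts. The members and lists were chosen with earlier results of these data known. From the counts, groups were compared over 6 libraries at a time, without covariates, with edgeR 4.0.16 in R 4.3.3 (quasi-likelihood test, TMM, default filter on low counts), and p-values were adjusted over all genes tested by the Benjamini-Hochberg method. A gene was called at an adjusted p under 0.05 and a log2 fold change beyond 1, the thresholds of the study's methods, which name DESeq2. The standard error is the log2 fold change divided by the square root of F, and 95% intervals use its degrees of freedom. CPM used TMM factors over all 9 libraries. DESeq2 1.42.0 and limma 3.58.1 on log2(FPKM + 1) and log2(FPKM + 0.1) were alternatives. In the table, 494 identifiers stood on 1081 rows, none of them a member. The fits were tested on simulated counts. Beyond the members, genes were named by rule: up to 4 called genes with the largest change per list and comparison, Cxcl13, Tnfsf13b, Sdc1, Prdm1, Xbp1, Irf4 and Cd38, the 3 immunoglobulin rows with a symbol and the most counts, and the genes most correlated with the members. Ighmbp2 matched the immunoglobulin name pattern and was left out, since it encodes no antibody chain. Rag1, Rag2, Cxcl12, Ebf1, Foxo1, Bcl11a and S1pr1 were named after their values were seen. Some genes of the rule are not reported here. For lists of other cells, counts of calls and summed CPM are given.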

Additional observations from a re-analysis of the deposited data

How the results depend on the processing

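In SCI against Sham, 3 members were called, and 2 to 3 when each library was left out in turn. With log2(FPKM + 1) and limma the count was 0. The log2 fold changes there were 0.69 for Cd79a, 0.28 for Cd79b and 0.99 for Cd22, all under the threshold of 1. Cd22 also missed the p threshold there (limma adjusted p = 0.0527). Cd79b was not called without the filter on low counts (edgeR adjusted p = 0.0732). Against Sham, DESeq2 called the same members as the main fit, which were Cd79a, Cd79b and Cd22 in SCI and Cd79a and Cd22 in SCI + SCS. For SCI + SCS against Sham 2 members were called, 2 to 3 with a library left out, and 0 with log2(FPKM + 1). Ms4a1 was added without Sham 3, the only Sham library in which it had counts, so this addition is no support for a difference. For SCI + SCS against SCI 0 members were called in every setting, and leaving out each library gave 0 to 0.

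The replicate numbers did not pair the rats: deviations of same-numbered libraries correlated at 0.056 on average for SCI and Sham, -0.074 for SCI + SCS and SCI and -0.14 for SCI + SCS and Sham. With the replicate block, the members called were 2 (Cd79a and Cd22), 0 and 0 in SCI against Sham, SCI + SCS against SCI and SCI + SCS against Sham. In the last, the blocked log2 fold changes were 2.01 for Cd79a (edgeR adjusted p = 0.0636) and 2.53 for Cd22 (edgeR adjusted p = 0.0513).

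The Cd22 log2 fold change of SCI + SCS and SCI was 0.022 with log2(FPKM + 0.1), and ran from -0.85 to 0.79 with a library left out. That of Jchain in SCI + SCS against Sham ran from -0.22 to 0.38 with a library left out. The cause was not tested. Over all genes, calls in SCI against Sham numbered 4800, and 2649 with log2(FPKM + 1). In SCI + SCS against SCI they numbered 1, against 777 with DESeq2, 20 with log2(FPKM + 1), 19 with log2(FPKM + 0.1), 0 with the replicate block and 0 to 123 with a library left out. In SCI + SCS against Sham they numbered 2068, against 715 with the replicate block, 921 with log2(FPKM + 1) and 950 to 2891 with a library left out. FPKM in place of CPM for the levels is a different unit and is given beside them. Ms4a1, Pax5, Tnfrsf17 and the antibody chains were at 0 to a few counts in many libraries, and the part of depth in this was not tested.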
